A study of Mus musculus with 8 samples.

Results

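Oxidative phosphorylation is described here through 98 genes of the 21291 gene rows measured in embryonic mouse kidneys. The members are the rows whose names fit a fixed pattern, with no measured value in the rule: every row named as a subunit of complex I (the Ndufa, Ndufb, Ndufc, Ndufs and Ndufv families), complex II (Sdha to Sdhd), complex III (Uqcr genes), complex IV (Cox4 to Cox8 genes) or complex V (Atp5 genes), and the 13 protein-coding genes of the mitochondrial genome. By this rule 85 members are encoded in the nucleus, 40 of them in complex I, 4 in complex II, 8 in complex III, 16 in complex IV and 17 in complex V. The 4 mutant samples were kidney pairs of E14.5 embryos with the genotype Six2-GFPcre tg/+; Etv4-/-; Etv5fl/fl. The 4 control samples were kidney pairs from embryos of the same stage with the genotype Six2-GFPcre tg/+; Etv4+/-; Etv5fl/fl, and the labels call them littermates. Both groups therefore carry the Six2-GFPcre transgene and 2 floxed Etv5 alleles, and by the labels they differ at Etv4. Six2 is a gene of nephron progenitors, so Cre is driven in those cells and their descendants, while the RNA came from whole kidneys with stroma, vessels and ureteric epithelium. Each library is 1 kidney pair, and litters are not named.

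Complexes I to IV pass electrons from NADH and succinate to oxygen, and complexes I, III and IV pump protons out of the mitochondrial matrix. Complex V, the ATP synthase, makes ATP as the protons flow back. Most subunits are encoded in the nucleus and imported, while a small core is encoded by the mitochondrial genome, whose strands are copied into long transcripts that are cut into single messages. The mature proximal tubule relies on this pathway to power sodium reabsorption, while nephron progenitors are known for a larger use of glycolysis. Etv4 and Etv5 encode ETS-family transcription factors, and ETS sites are common in the promoters of nuclear respiratory genes, where another family member, the GA-binding protein, is the best known regulator.

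The libraries held 34114519 to 39548327 estimated counts, except control 4 with 15515139. Lars2, the gene of the mitochondrial enzyme that charges leucine tRNA, took 18.4% of the counts of control 4, and between 0.138% and 0.476% of those of each remaining library. Etv4 had 164 to 294 normalized counts in mutants, against 2311 to 2816 in controls (log2 fold change −3.51, SE 0.18, limma adjusted p = 2.6e-05). Etv5 had 1487 to 2658 in mutants and 3006 to 4085 in controls (log2 fold change −0.79, SE 0.18, adjusted p = 0.106). The Y-linked Ddx3y was at 0 in every mutant and had 1553 to 1629 normalized counts in every control, so the sex of the embryos and the genotype cannot be told apart in any comparison here. Library names hold a number, which is the same for mutants 1 and 2 and controls 1 and 2, another for mutant 4 and control 4, and one each for mutant 3 and control 3. What it stands for is not given in the labels.

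No oxidative phosphorylation gene passed the threshold between mutant and control kidneys. Of the 98 members 94 had enough counts to be tested, 81 nuclear and 13 mitochondrial, and 0 passed an adjusted p of 0.05 in limma, with 0 also by limma voom. Over all 14974 genes tested, 0.301% passed (0.0801% higher and 0.22% lower in mutants), so a count of 0 among 94 lies close to that background. At an unadjusted p below 0.05 there was 1 member, Cox4i2, against 12.0% of all genes. Mutant and control libraries did not overlap for 1 member, again Cox4i2, against 8.6% of all genes (4.17% higher and 4.43% lower in mutants). The nuclear members had a median log2 fold change of −0.062, with 63 of 81 negative, and the mitochondrial members one of 0.088, with 9 of 13 positive, against 0.0087 over all genes. These fold changes are differences of log2(normalized count + 1), mutant minus control.

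The intervals show what the libraries could resolve. For 79 of 81 tested nuclear members the 95% interval of the fold change lay within 1 log2 unit of 0 on either side, and for 66 within 0.5. Among the mitochondrial members the interval lay within 1 log2 unit for 9 of 13. The nuclear members outside 1 log2 unit were Cox4i2 and Ndufa4l2. In these whole-kidney libraries fewer cells of a type and less RNA per cell cannot be told apart.

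**Figure D1:**
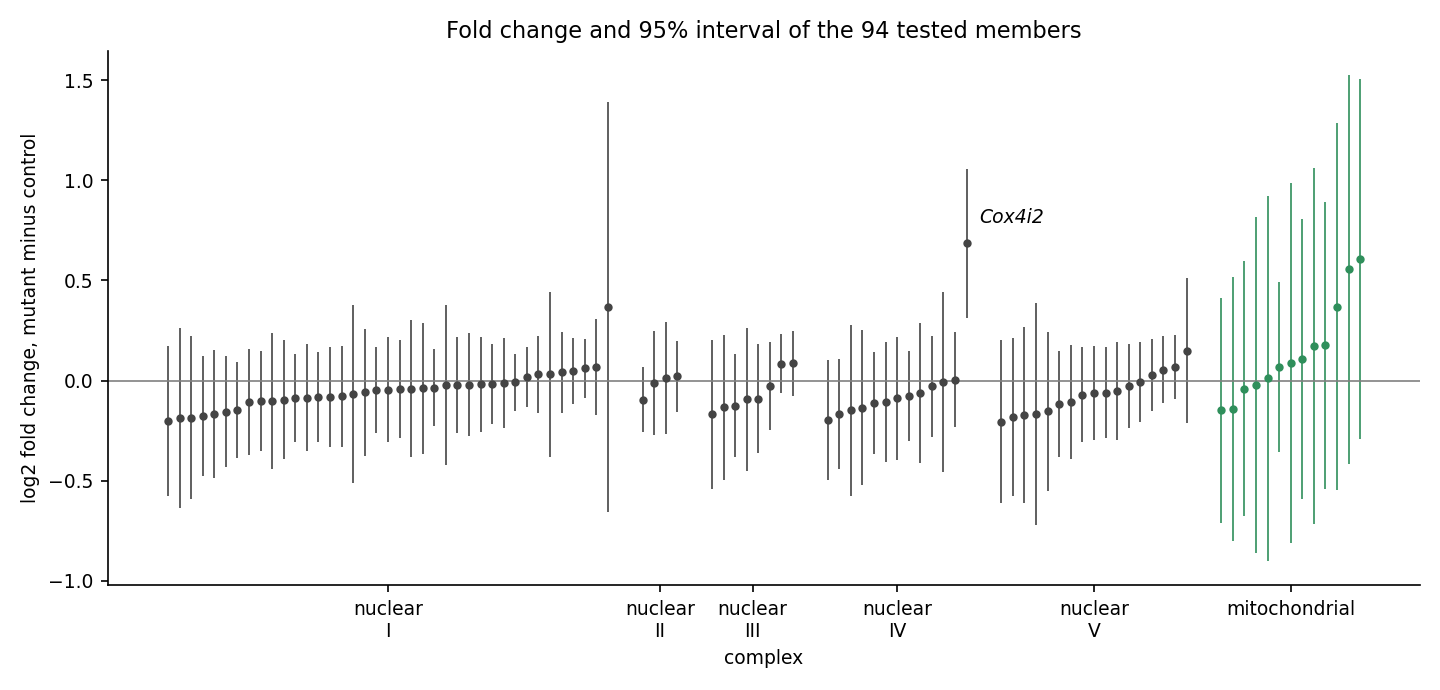
Log2 fold change (mutant minus control) of the 94 tested members with the limma 95% interval, grouped by complex for nuclear members (grey) and with the 13 mitochondrial members together (green), each group sorted by fold change. The nuclear points other than Cox4i2 at 0.68 and Ndufa4l2 at 0.37 lie between −0.20 and 0.15. The widest interval is that of Ndufa4l2, at −0.65 to 1.39, and that of ATP8, at −0.41 to 1.53, is the widest of the mitochondrial ones.

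Complex I takes electrons from NADH, and its 39 tested nuclear members had a median log2 fold change of −0.045, with 31 negative and 8 positive. Ndufb9, an accessory subunit of the membrane arm, had 2573, 2839, 2501 and 2998 normalized counts in mutants 1 to 4, against 2895, 2707, 2878 and 3656 in controls 1 to 4. Its log2 fold change of −0.15 (SE 0.11) had the smallest p of these genes (limma adjusted p = 0.628), and control 4 was above all other libraries. Ndufa4, first assigned to complex I and later found in complex IV, averaged 3479 ± 203 in mutants and 3989 ± 858 in controls (SD, n = 4 each, log2 fold change −0.18, limma adjusted p = 0.645). Ndufb4 and Ndufb4c share reads, since all 31-base words of Ndufb4c, a processed pseudogene in the annotation, occur in Ndufb4, so their split is uncertain.

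Complex II, succinate dehydrogenase, belongs to both the respiratory chain and the tricarboxylic acid cycle and is wholly nuclear. Its 4 members had log2 fold changes between −0.096 and 0.023. Sdha, the flavoprotein that oxidises succinate, had 9352, 9497, 8789 and 8054 normalized counts in mutants, against 9146, 8175, 9074 and 8693 in controls. Sdhb, the iron-sulfur subunit, had 5122, 4894, 4710 and 4952 in mutants and 5144, 5091, 5032 and 5798 in controls (log2 fold change −0.096 with SE 0.073, adjusted p = 0.638). Both genes overlapped between the groups.

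Complex III hands electrons to cytochrome c, and its 8 nuclear members had a median fold change of −0.091, with 6 negative. The core proteins Uqcrc1 and Uqcrc2 were the positive ones. Uqcrc2 had 8709, 8389, 7803 and 8905 normalized counts in mutants, against 7557, 7929, 8223 and 8128 in controls. Its log2 fold change was 0.085 (SE 0.072, adjusted p = 0.678), and that of Uqcrc1 was also 0.085 (SE 0.066, adjusted p = 0.646). The row of Uqcrc1 is identical to that of an unnamed gene, and the same holds for Ndufs3 and Atp5a1, so these values are not unique to 1 gene model. The row of Cox7b2 also matches another row, but it holds 1 estimated count in mutant 3 and 0 elsewhere, so that match does not show shared reads.

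Complex V had 17 tested members with a median log2 fold change of −0.063, 13 negative and 4 positive, and a range of −0.20 to 0.15. Atp5b, the catalytic beta subunit, was the most abundant nuclear member per kilobase of transcript, at 25925 ± 293 normalized counts per kilobase in mutants and 25424 ± 769 in controls (SD, n = 4 each). It was also the steadiest nuclear member, with an SD of 0.034 over the log2 values of all 8 libraries. Its counts were 49598, 50343, 48979 and 49768 in mutants, against 48678, 47267, 48165 and 50743 in controls. Atp5md, a small subunit of the membrane part, had the lowest fold change of the complex at −0.20 (SE 0.18, limma adjusted p = 0.699), and Atp5e, the epsilon subunit of the central stalk, followed at −0.18 (SE 0.18, adjusted p = 0.726).

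Complex IV, cytochrome c oxidase, passes the electrons to oxygen, and its 13 tested nuclear members had a median log2 fold change of −0.088, with 11 negative and 2 positive. Cox4i2 (ENSMUSG00000009876, chromosome 2, 152754173 to 152765037, plus strand, GRCm38) encodes the minor isoform of subunit 4, known for high expression in lung and in pericytes and for a role in oxygen sensing. It had 205, 198, 218 and 241 normalized counts in mutants 1 to 4, against 127, 125, 119 and 166 in controls 1 to 4. All 4 mutants lay above all 4 controls, which holds for 4.17% of all genes in that direction. The log2 fold change was 0.68 (SE 0.17, 95% interval 0.31 to 1.05), a ratio of 1.61, and it did not pass (limma adjusted p = 0.124). The log2 fold change was 0.67 between mutants 1 and 2 and controls 1 and 2, and 0.73 without mutant 4 and control 4. Over 25 other limma fits it ranged from 0.55 to 1.15, with adjusted p from 0.012 to 0.554. It passed in 1 of them, where limma weighted the libraries and 5.0% of all genes passed. In the authors' deposited table of 644 genes, whose selection is not stated, Cox4i2 is the single member, at a log2 fold change of 0.80 (SE 0.20) and an adjusted p of 0.0023.

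Cox4i1, the ubiquitous isoform of the same subunit, showed no such separation. It had 12250, 13227, 13342 and 14750 normalized counts in mutants, against 12349, 12872, 12785 and 16938 in controls, and the log2 fold change was −0.028 (SE 0.11, adjusted p = 0.949). Per kilobase, Cox4i2 stood at 295 ± 26.1 in mutants and 184 ± 29.3 in controls, while Cox4i1 stood at 17976 ± 1382 in mutants and 18438 ± 2881 in controls (SD, n = 4 each). Cox4i2 was thus the far rarer transcript in both groups. Cox4i2 is typical of vessel-associated cells, and the endothelial marker list also lay higher in mutants: all 8 of its 8 genes had positive fold changes, 0 passed the threshold, and their summed normalized counts were 20539 to 23691 in mutants and 14744 to 19413 in controls, with no marker of the list at 0. The macrophage list likewise had 7 of 8 genes positive, 0 past the threshold, and sums of 3576 to 4044 in mutants and 2194 to 3355 in controls. The stromal list, which holds Pdgfrb, had 7 of 9 genes positive and sums of 141056 to 155664 in mutants and 83364 to 169542 in controls. Of the nephron progenitor list, the cells in which Cre is driven, 9 of 10 genes were negative and 3 passed as lower, with sums of 6329 to 12369 in mutants and 20527 to 36279 in controls. All 9 tested podocyte genes were positive and 0 passed, with sums of 10281 to 19421 in mutants and 8386 to 10356 in controls. The part of these lists in the Cox4i2 values was not tested.

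**Figure D2:**
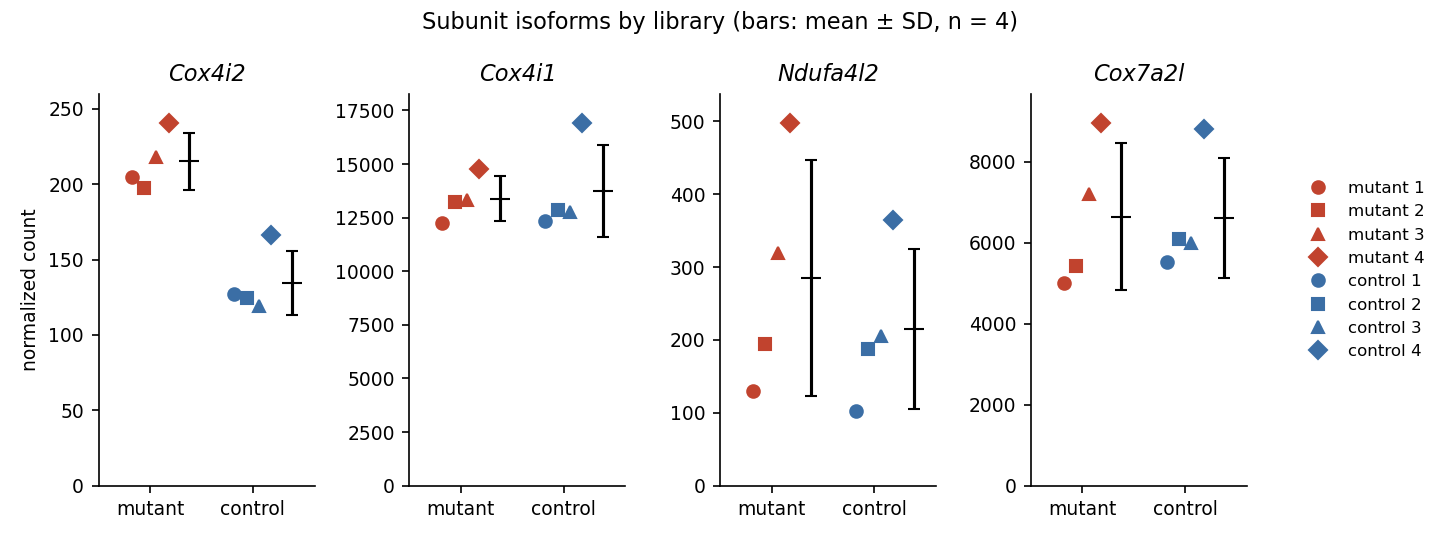
Normalized count (vertical axis, from 0, one scale per gene) of Cox4i2, Cox4i1, Ndufa4l2 and Cox7a2l in each mutant (red) and control (blue) library, with the mean ± SD of 4 libraries as a black bar. Cox4i2 separates the groups, at 198 to 241 in mutants and 119 to 166 in controls, while in the other 3 genes the groups overlap. In each gene, Cox4i2 included, mutant 4 and control 4 are the highest of their group.

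The other isoform families of complexes IV and V were led by their ubiquitous forms. Cox6a1 averaged 6755 ± 347 normalized counts in mutants and 7171 ± 1001 in controls, while Cox6a2, the heart and skeletal muscle form, had 22 estimated counts in mutant 2 and at most 2 in any other library. Mutant 2 also had the highest mean log2 deviation of the striated muscle marker list, 2.92, though not the highest summed count, with 9153 against 2918 to 5257 in the other mutants and 7542 to 11571 in controls. In that list Myh3, the embryonic myosin heavy chain, had 1449 normalized counts in mutant 2 and 13.2 to 70.8 in the others. Cox7a1, another muscle form, had 0 to 10.5 normalized counts in mutants and 2.80 to 24.9 in controls. Cox7b2, an isoform of Cox7b, had 1 estimated count in mutant 3 and 0 in the others. These genes and the pseudogene Ndufa12-ps, whose normalized counts reached at most 1.87, are the 4 members that were too low to test.

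Cox6b1, which caps the oxidase on the side facing cytochrome c, had 3683, 3870, 3798 and 4042 normalized counts in mutants, against 3937, 3916, 4080 and 6019 in controls. Its log2 fold change of −0.20 (SE 0.13, adjusted p = 0.596) came with control 4 far above the other controls. Cox6b2, the testis isoform, was lower but present, at 245 ± 17.5 in mutants and 258 ± 48.6 in controls (SD, n = 4 each). Cox7a2 averaged 2928 ± 136 in mutants and 3329 ± 618 in controls, and Cox7b 2139 ± 298 in mutants and 2391 ± 662 in controls. The proton-carrying ring of ATP synthase is built from one mature protein encoded by Atp5g1, Atp5g2 and Atp5g3. Per kilobase, Atp5g3 led with 13219 ± 721 in mutants and 13976 ± 2111 in controls, followed by Atp5g1 with 1692 ± 103 in mutants and 1564 ± 441 in controls and Atp5g2 with 1192 ± 421 in mutants and 1290.4 ± 244 in controls. In mutants and in controls these per-kilobase ranges of mean ± SD of Atp5g1 and Atp5g2 overlapped, while Atp5g3 stood well above both. The divisor was the median annotated transcript length, 2675.5 bases for Atp5g1, 683 for Atp5g2 and 718.5 for Atp5g3. Without that division, Atp5g1 averaged 4527 ± 275 normalized counts in mutants and 4185 ± 1179 in controls. Atp5g2 averaged 814 ± 287 in mutants and 881 ± 167 in controls.

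All 13 mitochondrial members were detected in every library, and most of them stood above nearly every nuclear member per kilobase. ATP6, a proton-channel subunit of complex V, had 167110 ± 61474 normalized counts per kilobase in mutants and 122149 ± 81466 in controls, and COX3 134983 ± 40808 in mutants and 126318 ± 65964 in controls (SD, n = 4 each). COX1, the catalytic subunit of complex IV, had 99156 ± 39580 in mutants and 100328 ± 32465 in controls. The complex I subunits ND1, ND3, ND2, ND4, ND5 and ND6 had mutant means from 21862 for ND6 to 104111 for ND1 and control means from 22126 for ND5 to 86215 for ND1, and CYTB lay among them at 59783 in mutants and 60783 in controls. COX2, which receives electrons from cytochrome c, had 18436 ± 11870 in mutants and 16236 ± 7145 in controls, and ND4L and ATP8 were the lowest, with 9000.1 and 5898 in mutants and 9974 and 4349 in controls. The spread within each group was large, and no order between neighbouring genes is drawn from it.

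The mitochondrial transcripts stood apart in 1 library of each group. Mutant 4 and control 4, whose names share a number, were the highest libraries for each of the 13 genes. ND1, a membrane subunit of complex I, had 80102, 81420, 67267 and 169747 normalized counts in mutants 1 to 4, against 44308, 69681, 53174 and 162868 in controls 1 to 4. CYTB, the single mitochondrial subunit of complex III, had 43859, 52534, 54969 and 122206 in mutants and 46043, 55478, 51329 and 125293 in controls. In both genes the fourth library of each group stood far above the rest, and the other 6 libraries overlapped between genotypes. Relative to the median of those 6 libraries, mutant 4 lay 1.61 to 2.91 times and control 4 1.504 to 2.93 times as high over the 13 genes. The highest ratio in control 4 was that of ND6, the gene encoded on the other strand.

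**Figure D3:**
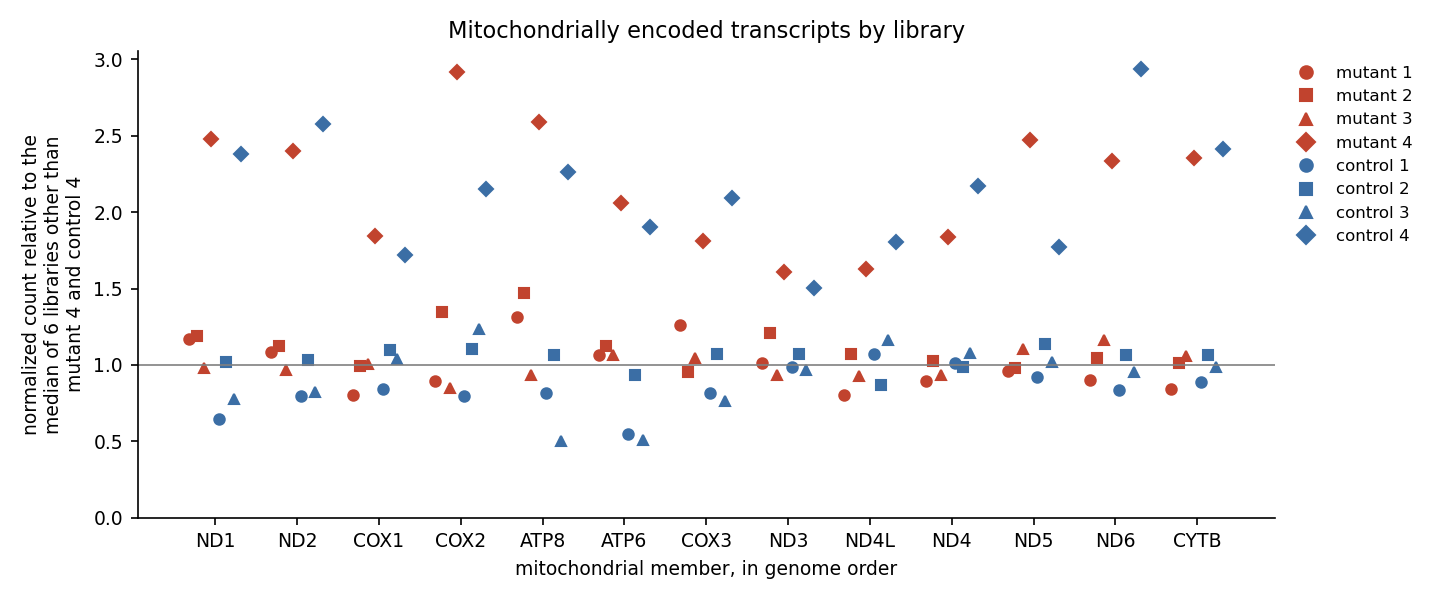
Normalized count of each mitochondrial member in the 8 libraries (mutants red, controls blue), divided by the median of the 6 libraries other than mutant 4 and control 4, with genes in genome order and a grey line at 1. Mutant 4 and control 4 lie at 1.504 to 2.93 for every gene. The other libraries lie below them in each gene and spread to both sides of the line. For ATP8 these run from 386 to 1123 normalized counts, with a median of 763.

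Within one library number the mitochondrial genotype differences had no common direction. Mutant 4 was higher than control 4 for 7 of the 13 genes and lower for 6, with ratios from 0.796 for ND6 to 1.396 for ND5. Among mutants 1 and 2 and controls 1 and 2, the mean of the 2 mutants was above that of the 2 controls for 8 genes and below it for 5. The median fold change of the 13 genes was −0.215 without mutant 4 and 0.354 without control 4. Each of these fits keeps the high library of the other group alone, which unbalances the groups. The median was 0.055 without both of these libraries, and 0.107 between mutants 1 and 2 and controls 1 and 2. Without control 1 it was −0.0082, so its sign changed with the libraries kept. No mitochondrial gene had an unadjusted p below 0.05 in limma, and ATP6 had the smallest (log2 fold change 0.61, SE 0.40, limma adjusted p = 0.591). ATP6 had 91187, 96205, 91315 and 176500 normalized counts in mutants, against 46702, 80014, 43398 and 162618 in controls. Here mutants 1 to 3 all lay above controls 1 to 3, unlike in ND1 and CYTB. With weighted libraries ATP6 passed, with a fold change of 0.95 and a limma adjusted p of 0.0497, where 5.0% of all genes passed.

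Several mitochondrial genes share nearly all their sequence with nuclear copies that the table lists as genes of their own. At least 98.1% of the 31-base words of COX2, ATP6, COX3 and ND3 occur in such a copy, and COX1 shares 45.2% with one copy and 29.6% with another, while the other 8 mitochondrial genes share under 10%. For COX2 the copy received more counts than the gene. The copy ENSMUSG00000102070 had 48726, 54234, 52862 and 116657 normalized counts in mutants, against 7527, 11297, 7155 and 24461 for COX2 itself in the same libraries. In controls the copy had 39852, 48870, 47261 and 118844, against 6713, 9259, 10385 and 18065 for COX2. After summing each gene with its copies the mitochondrial fold changes ranged from −0.15 for ND4L to 0.56 for ATP8, with ATP6 at 0.48 (SE 0.36) and COX3 at 0.35 (SE 0.29), and 0 genes passed in limma. The 8 genes that share under 10% had a mean log2 deviation of 0.90 in mutant 4 and 0.91 in control 4.

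ATP8 and ATP6 overlap in the mitochondrial genome and lie on a shared message, so reads over the overlap cannot be assigned to either. ATP8 (mitochondrial genome, 7766 to 7969, plus strand, GRCm38) is printed here because its counts were far below those of ATP6 in spite of that shared message. The 43 bases that it shares with ATP6, at positions 7927 to 7969, are in capitals.
ATP8: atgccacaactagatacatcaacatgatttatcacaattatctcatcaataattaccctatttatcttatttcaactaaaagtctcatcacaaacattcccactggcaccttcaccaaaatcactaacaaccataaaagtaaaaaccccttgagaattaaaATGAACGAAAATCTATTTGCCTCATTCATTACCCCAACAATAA
ATP8 had 1000.05, 1123, 712 and 1977 normalized counts in mutants, against 625, 814, 386 and 1724 in controls, and the log2 fold change was 0.56 (SE 0.43, adjusted p = 0.652). The pattern over libraries followed that of ATP6, with controls 1 and 3 lowest and mutant 4 and control 4 highest.

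The balance between the genomes was read from the share of counts that each set took. The mitochondrial shares and the ratio below leave out the nuclear copies that share sequence with these genes, so they depend on how reads were split. The copy of COX3, ENSMUSG00000101111, alone had 50746 to 122720 normalized counts over the libraries. The mitochondrial members held 1.73%, 1.83%, 1.81% and 3.67% of all estimated counts in mutants 1 to 4, against 1.33%, 1.83%, 1.49% and 2.61% in controls 1 to 4. The nuclear members held 1.12%, 1.17%, 1.15% and 1.22% in mutants, against 1.09%, 1.10%, 1.13% and 1.01% in controls. The nuclear share was therefore nearly level, while the mitochondrial share was raised in mutant 4 and control 4. Without the Lars2 counts the mitochondrial share of control 4 was 3.19% and its nuclear share 1.24%. The ratio of mitochondrial to nuclear counts was 1.54, 1.56, 1.57 and 3.01 in mutants and 1.22, 1.67, 1.32 and 2.58 in controls, with means of 1.92 ± 0.72 in mutants and 1.695 ± 0.62 in controls (SD, n = 4 each). The difference of the means, 0.23, was smaller than the spread within either group, which includes mutant 4 and control 4. Between mutants 1 and 2 and controls 1 and 2 the difference was 0.11, though control 2 lay above both of these mutants. Between mutant 4 and control 4, 1 library each, it was 0.43.

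The small negative shift of the nuclear members came with 1 library. Control 4 was the highest of the 8 libraries for 65 of 81 nuclear members, or 80.2%, against 22.7% of all genes tested, and mutant 4 was the highest for 8. The mean log2 deviation of the nuclear members from their gene means was −0.11, 0.0039, −0.065 and 0.071 in mutants 1 to 4, against −0.078, −0.13, −0.036 and 0.34 in controls 1 to 4. Without control 4 the median fold change of the nuclear members was 0.036, and between mutants 1 and 2 and controls 1 and 2 it was 0.053. Control 4 was also the library with the lowest depth and the highest Lars2 share, and their part in this shift was not tested.

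In control 4 the shift varied with transcript length. Over the 77 nuclear members with a length, Spearman's rho between the deviation and the median annotated transcript length was −0.49 in control 4, against −0.37 over 14020 genes of the same library. In mutant 4, which shares its number, the same correlation was −0.055 for the members and −0.079 for all genes. In mutant 1 it was 0.44 for the members. These are correlations across genes of single libraries, which share that library's depth and preparation, and genes are not independent replicates. The 38 shorter members, of 321.5 to 645 bases, had a median deviation of 0.40 in control 4, and the 39 longer ones, of up to 2675.5 bases, one of 0.31.

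**Figure D4:**
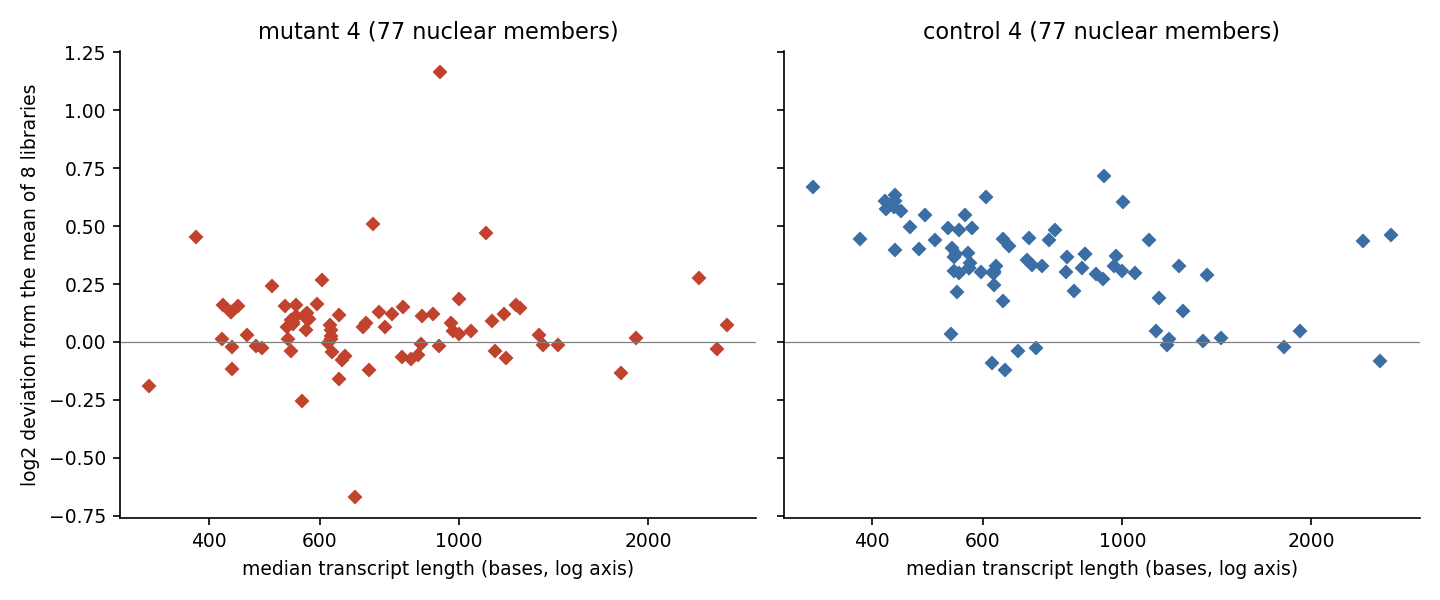
Log2 deviation of each of 77 nuclear members from its mean over 8 libraries (vertical axis) against its median transcript length in bases (horizontal log axis), for mutant 4 on the left and control 4 on the right. Points in mutant 4 scatter around 0, while in control 4 most members lie above 0 and the shorter ones lie highest.

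The libraries also differed in how much of the tubule programme they held, which was read from a proximal tubule marker score. It is the mean log2 deviation of the markers of that segment with a count in any library, tested or not. The list has 14 markers in the data, of which 9 were tested. The score was −1.08, −0.37, 1.47 and 3.46 in mutants 1 to 4, against −2.50, −1.15, −1.60 and 1.77 in controls 1 to 4. Hnf4a, the transcription factor of that segment, had 197, 282, 2262 and 4877 normalized counts in mutants and 1.84, 194, 96.9 and 1547 in controls. All 9 tested markers of the list had positive fold changes, 0 passed the threshold, and the summed level of the list was 1051 to 19143 in mutants and 437 to 6895 in controls. The scores left a gap of 1.84 between 5 lower and 3 higher libraries, so no correlation over all libraries is given, and the score defined no groups.

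Neither genome followed the tubule score in every library. The mitochondrial score was −0.25, −0.087, −0.24 and 0.86 in mutants 1 to 4, against −0.50, −0.18, −0.42 and 0.83 in controls 1 to 4. Mutant 3 had the tubule score closest to that of control 4 but a mitochondrial score at the level of mutant 1. The nuclear score, given above, was highest in control 4 rather than in mutant 4, where the tubule score was highest. The nuclear minus mitochondrial score was 0.15, 0.091, 0.18 and −0.79 in mutants and 0.42, 0.057, 0.39 and −0.49 in controls, and the difference of the means, mutant minus control, was −0.19, against a pooled SD of 0.45. With the tubule score as a covariate this difference was 0.17. Without the covariate it was −0.12 between mutants 1 and 2 and controls 1 and 2, and −0.30 between mutant 4 and control 4, 1 library each.

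**Figure D5:**
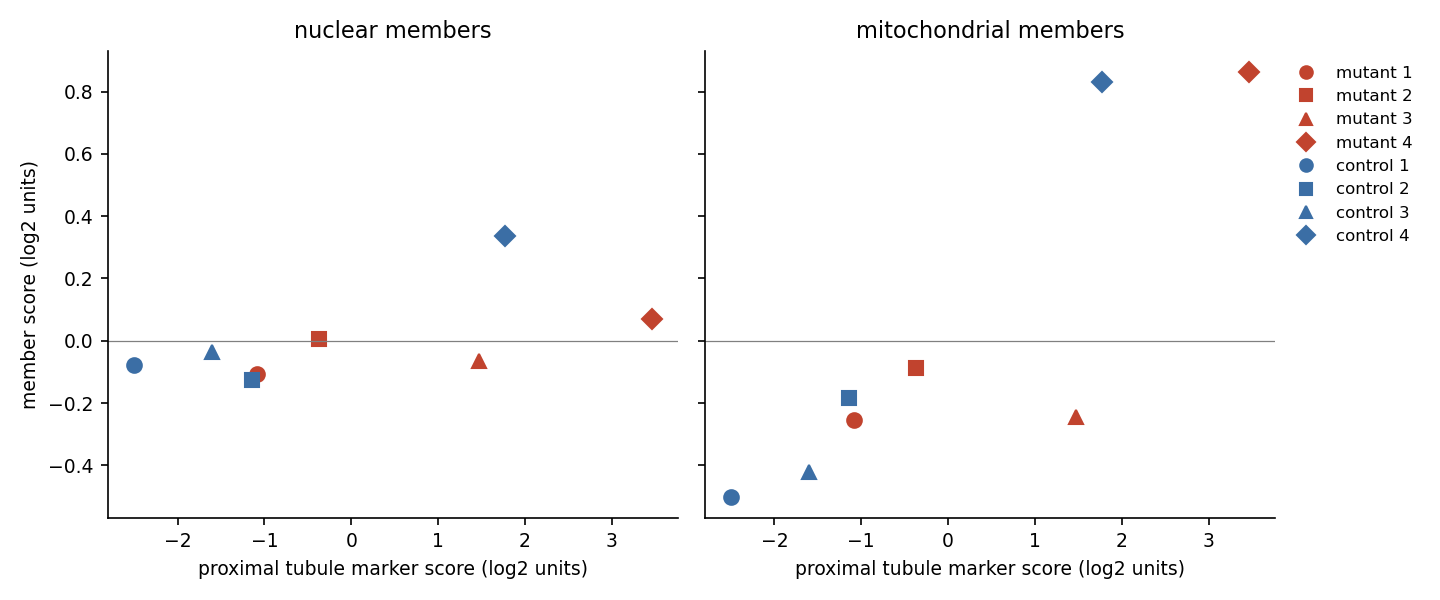
Mean log2 deviation of the nuclear (left) and mitochondrial (right) members in each library against that library's proximal tubule marker score, all in log2 units, with mutants in red and controls in blue. Mutant 3, at a tubule score of 1.47, has a mitochondrial score of −0.24, while mutant 4 and control 4 have 0.86 and 0.83.

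For a few nuclear members the highest or lowest libraries were those with high tubule scores. Cox7a2l, an assembly factor that joins complexes III and IV into supercomplexes, had 5013, 5414, 7193 and 8969 normalized counts in mutants 1 to 4, against 5525, 6101, 5998 and 8804 in controls 1 to 4. Its 3 highest libraries were those with the 3 highest tubule scores, and 21.4% of its 31-base words are shared with another listed gene. Ndufa4l2, a relative of Ndufa4 that is known as a target of hypoxia-inducible factor, had 130, 195, 319 and 498 in mutants, against 102, 187, 206 and 365 in controls. It varied most among the nuclear members that were tested, with an SD of 0.76 over the log2 values, and its 3 highest libraries were the same. Cox6c, a small subunit of complex IV, had 2405, 2809, 3119 and 3787 in mutants and 2871, 2862, 3021 and 4857 in controls. Atp5g2 was lowest in mutants 3 and 4, with 1083, 1037, 621 and 516 in mutants and 979, 692, 1057 and 797 in controls. Of the 31-base words of Atp5g2, 37.5% are shared with another listed gene. The order by tubule score was looked at after the values were seen.

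With the tubule score as a covariate, 3 nuclear members were lower in mutants. They were Cox6c (log2 fold change −0.42, SE 0.087, limma adjusted p = 0.0437), Cox7a2l (−0.31, SE 0.060, adjusted p = 0.0378) and Uqcrq, a small subunit of complex III (−0.33, SE 0.067, adjusted p = 0.0437). Uqcrq had 2768, 3063, 3601 and 4080 normalized counts in mutants, against 2921, 3380, 3489 and 4680 in controls. In that fit 1.93% of all genes passed, against 3 of 94 members, and the median log2 fold change was −0.16 over the nuclear and −0.37 over the mitochondrial members, none of which passed. The score is itself read from these libraries and lies higher in mutants on average, and each of the 3 genes overlapped between the groups without it.

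The promoters of the nuclear members were searched for the ETS core CCGGAA and for the NRF1 half-site GCGCATGC, on both strands, in the window from 250 bases before to 50 after the annotated start. The ETS core was present for 26 of the 68 members with a window, or 38.2%, against 4503 of 27025 genes with a window, or 16.7%. The NRF1 motif was present for 10 of 68, or 14.7%, against 3.05% of all genes. NRF1 is a regulator of nuclear respiratory genes. A match is a description of letters, not of binding. To show what such windows look like, 3 members were picked for their motif counts after these were known: Cox8a with 3 ETS cores (chr19:7217567-7217866, minus strand), Uqcr11, a small subunit of complex III, with 2 ETS cores and 1 NRF1 motif (chr10:80406772-80407071, minus strand), and Cox6a1 with 1 ETS core and an NRF1 motif on both strands (chr5:115348909-115349208, minus strand). The sequences are from RefSeq, GRCm38.p6, written 5′ to 3′ along the gene, with the motifs in capitals.
Cox8a: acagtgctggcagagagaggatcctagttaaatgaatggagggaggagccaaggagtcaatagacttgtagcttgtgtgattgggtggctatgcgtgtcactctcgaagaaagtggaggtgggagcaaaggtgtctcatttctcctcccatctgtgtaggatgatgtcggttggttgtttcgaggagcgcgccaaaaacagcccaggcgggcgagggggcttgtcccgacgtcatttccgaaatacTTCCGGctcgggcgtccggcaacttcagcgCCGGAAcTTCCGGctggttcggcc
Uqcr11: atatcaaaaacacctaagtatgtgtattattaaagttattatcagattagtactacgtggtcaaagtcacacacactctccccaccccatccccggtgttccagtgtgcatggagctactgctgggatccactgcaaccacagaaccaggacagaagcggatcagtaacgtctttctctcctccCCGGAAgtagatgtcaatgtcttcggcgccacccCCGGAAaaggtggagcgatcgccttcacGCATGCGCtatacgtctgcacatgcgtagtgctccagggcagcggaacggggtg
Cox6a1: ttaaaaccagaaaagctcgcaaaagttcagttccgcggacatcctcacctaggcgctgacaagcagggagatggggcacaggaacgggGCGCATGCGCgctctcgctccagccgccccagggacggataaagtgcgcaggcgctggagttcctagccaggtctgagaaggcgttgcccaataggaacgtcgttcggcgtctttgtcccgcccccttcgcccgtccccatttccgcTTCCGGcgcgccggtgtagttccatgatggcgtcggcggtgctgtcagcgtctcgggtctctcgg

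Members with an ETS core in this window did not stand apart between the genotypes. The 26 with the core had a median log2 fold change of −0.079, with a range of −0.20 to 0.069, and the 40 tested members without it one of −0.061, with a range of −0.20 to 0.15. In both sets 0 passed the threshold. Of the printed members, Cox8a had 7310, 7161, 6914 and 8238 normalized counts in mutants, against 7153, 6798, 7353 and 10652 in controls. Uqcr11 had 1650.2, 1967, 1821 and 2216 in mutants, against 1893, 1793, 1892 and 2945 in controls. In both genes control 4 was the highest library, and the remaining controls overlapped the mutants. The log2 fold changes were −0.088 (SE 0.14, adjusted p = 0.843) for Cox8a, −0.13 (SE 0.16, adjusted p = 0.791) for Uqcr11 and −0.078 (SE 0.100, adjusted p = 0.806) for Cox6a1.

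Beyond the members, 11 lists of other respiratory genes held 144 genes, of which 139 were present and 137 tested. In limma 0 passed the threshold, and 5 had an unadjusted p below 0.05, against 12.0% of all genes. Their median log2 fold change was −0.020, with 56 positive and 81 negative. Mutants and controls did not overlap for 7 of the 137, or 5.11%, against 8.6% of all genes: Tmem70, Top1mt and Taco1, a translational activator of COX1, were higher and Ndufaf2, Atpaf2, Slc25a4 and Slc25a31 lower in mutants. The 5 were spread over the lists. Ppargc1a, the coactivator that drives mitochondrial biogenesis, had 222, 165, 263 and 265 normalized counts in mutants, against 111, 121, 187 and 125 in controls (log2 fold change 0.75, SE 0.22, adjusted p = 0.218). Esrrg, a nuclear receptor that acts with it, had 263, 206, 609 and 825 in mutants and 133, 84.5, 151 and 291 in controls (1.44, SE 0.49, adjusted p = 0.269). Both genes had higher means in mutants and overlapped between the groups. Esrrg is in the authors' deposited table, at a log2 fold change of 1.96 (SE 0.58) and an adjusted p of 0.0172.

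In the remaining lists most differences were small. Among complex IV assembly factors 17 of 22 tested genes had negative fold changes, with a list median of −0.062 and a range of −1.25 to 0.17. The smallest p were those of the copper chaperone Sco1 at −0.44 (SE 0.17, adjusted p = 0.347) and Cox16 at −0.28 (SE 0.13, adjusted p = 0.437). For complex I assembly factors 10 of 17 were negative, with Dmac1 at −0.30 and Ndufaf2 at −0.23. For the assembly factors of complexes II, III and V 9 of 13 were negative, with Tmem70, an ATP synthase assembly factor, at 0.28 (SE 0.098, adjusted p = 0.294) and Atpaf2 at −0.18. Cytochrome c itself, Cycs, had a fold change of −0.18 (SE 0.11), and Ndufab1, the acyl carrier subunit of complex I, one of −0.18 (SE 0.089). None of these passed.

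The genes that copy and process mitochondrial DNA and RNA did not pass either. Top1mt, the mitochondrial topoisomerase, had 344, 315, 346 and 305 normalized counts in mutants, against 273, 288, 278 and 257 in controls (log2 fold change 0.26, SE 0.12, adjusted p = 0.419). Mterf4, needed for mitochondrial ribosome assembly, stood at −0.27 (SE 0.12, adjusted p = 0.428), and the RNA-processing genes Pnpt1 and Fastkd3 at 0.13 and −0.18. The tricarboxylic acid cycle had 9 of 17 genes positive, with Ogdh, a subunit of the oxoglutarate dehydrogenase complex, at 0.15. Among carriers 8 of 9 were negative. Slc25a4, the ADP/ATP carrier of heart and muscle, had 16810, 17503, 16618 and 17144 normalized counts in mutants, against 18523, 17859, 19013 and 19475 in controls (−0.14, SE 0.070, adjusted p = 0.475). The rare Slc25a31, a testis carrier, had 6.12, 12.7, 3.05 and 0 in mutants and 25.3, 26.1, 41.0 and 22.1 in controls (−2.70, SE 0.80, adjusted p = 0.209). For the organisers of cristae and supercomplexes 6 of 10 were negative, with Higd1a at −0.22 and Micos10 at −0.17.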

How the data were processed

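PolyA RNA of 8 kidney pairs was sequenced in paired-end mode, per the labels. The submitters' processing notes list fastp 0.23.2, kallisto 0.46.0, DESeq2 1.40.2 and mm10, without settings. Values in the authors' main table are log2 of an estimated count plus 1 and hold no depth correction: 75.0% turn back into whole numbers (tolerance 1e-06). A second table deposited by the authors holds, for 644 genes, a mean normalized count (signal), a log2 fold change, its test statistic (score) and p-values.

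Estimated counts were taken back from the logs, and each library was scaled by its median-of-ratios size factor. A gene was tested when at least 4 libraries reached 10 normalized counts. The test was limma 3.58.1 in R 4.3.3, with a variance trend, on log2(normalized count + 1), two-sided, Benjamini-Hochberg adjusted over all 14974 genes, at 0.05; such fold changes understate the change of low genes. Separate litters or cultures are not stated, so p-values measure the spread between these samples. Control 4 has the fewest counts and the least precise values. The fit was tested on simulated data.

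Positions and transcript lengths are GENCODE M21 (GRCm38). Shared sequence was counted as 31-base words. Members and lists were chosen with earlier results of these data known. Genes named are the mitochondrial members, members past the threshold, the smallest p and the highest count in each complex, isoform families, the largest spreads and the smallest p of each list; Uqcrq, Uqcr11 and Taco1 were added after their values were seen. Some genes that this rule names are not reported here. Alternatives covered filters, pseudocounts, scaling, weights, voom, a replicate block, library-name number, tubule score, each library left out and summed nuclear copies, the last chosen after seeing the data. A list of nuclear-retained transcripts had 0 of 4 genes in the table and was not used. Plots were made in Python 3.11.15 and matplotlib 3.10.9.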

Additional observations from a re-analysis of the deposited data

Results flagged for a closer look

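Of 90 groups of 4 values that were checked, 24 held a highest or lowest library far from the other 3 by Dixon's criterion at 95%, where chance gives about 4.5. Mutant 4 was the library apart in the mitochondrial members of the mutants, with 169747 normalized counts of ND1, 62960 of ND2, 176500 of ATP6, 62255 of ND4, 82325 of ND5 and 122206 of CYTB. Its mitochondrial score of 0.86, its nuclear minus mitochondrial score of −0.79 and its mitochondrial share of 3.67% stood apart too. Control 4 was apart in the controls, with 67542 normalized counts of ND2, 73545 of ND4, 24446 of ND6 and 125293 of CYTB. Among nuclear members control 4 was apart with 5798 normalized counts of Sdhb, 166 of Cox4i2, 6019 of Cox6b1, 16938 of Cox4i1, 6421 of Atp5e, 4857 of Cox6c, 3382 of Cox7b and 10652 of Cox8a. The Lars2 share of control 4, 18.4%, was also far from those of the other controls. Mutant 2 stood apart for Cox6a2 at 17.96 normalized counts. Mutant 3 stood apart for Cox7b2 at 0.871, which is a single estimated count.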

How the results depend on the processing

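Neither the nuclear nor the mitochondrial members passed the threshold in 23 of the 25 alternatives. With library weights 2 members passed, 1 nuclear (Cox4i2) and 1 mitochondrial (ATP6), where 5.0% of all genes passed. With the tubule score as a covariate 3 members passed, all 3 nuclear, where 1.93% of all genes passed. In the tubule score fit the mitochondrial median was −0.375, against 0.088, and the nuclear minus mitochondrial difference 0.169, against −0.187. Of the other respiratory lists 1 gene passed with no depth correction, 1 with the replicate block and 1 with the tubule score, against 0 otherwise. The replicate numbers of the titles did not pair mutants and controls by the correlations of their deviations, 0.266, 0.0983, −0.126 and 0.348 for replicates 1 to 4. Mutants and controls that share a library-name number had positive ones, 0.0678 to 0.348. Pairs with different numbers ranged from −0.307 to 0.179. They were positive for mutant 1 with control 3 (0.170), mutant 2 with control 3 (0.136) and mutant 3 with control 4 (0.179), and negative otherwise. With the library-name number as a term 0 members passed. With the replicate block 0 members passed and 133 of all genes, against 45. Without depth correction the nuclear median was 0.407, the mitochondrial 0.558 and that of all genes 0.476; with library totals the median of all genes was 0.141, of nuclear members 0.070 and of mitochondrial members 0.221, so under both scalings the nuclear median stayed below and the mitochondrial median above that of all genes.

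Leaving out 1 library at a time gave 0 members past the threshold throughout. The nuclear median ranged from −0.112 to 0.036, positive without control 4 alone, and the mitochondrial median from −0.215 without mutant 4 to 0.354 without control 4, with −0.0082 without control 1. The nuclear minus mitochondrial difference ranged from −0.382 to 0.046, positive without mutant 4 alone. The difference in mitochondrial share ranged from −0.026 without mutant 4 to 0.708 without control 4. Counts over all genes ranged from 2 to 167 in these fits, and were 11 with library totals, 80 with no depth correction, 28 with no variance trend, 748 with weights, 68 with voom, 17 with mutants 1 and 2 and controls 1 and 2, 186 without mutant 4 and control 4, and 289 with the tubule score. Of 925 values of named members, 107 changed sign, none of them called.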
